A study of Homo sapiens with 18 samples.

Results

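PRMT6 and 6 relatives of the protein arginine methyltransferase family (PRMT1, PRMT2, PRMT3, PRMT5, PRMT7 and CARM1) were followed at the RNA level in tumor cell aggregates under a direct current electric field (dcEF). The 7 genes were taken by name from a table of 32490 gene names, in which they are represented by 96 of 145326 transcripts. PRMT6 was selected on its measured levels in these same samples, so its values are given as a description with no test. The other 6 genes were tested, and all 6 passed the filter on low counts in both lines.

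The samples were polyA RNA libraries of spheroidal aggregates of U87 mg, a human glioblastoma line, and DAOY, a human line labelled as desmoplastic cerebellar medulloblastoma, each embedded in Matrigel. Aggregates of each line were collected without field (0 h), after 2 h or after 8 h at 250 V/m, with 3 samples per condition and 18 in all. Every sample pooled 3 stimulation channels, and the sequenced samples were those with the best RNA quality among the cultures of a condition. DAOY at 8 h was an exception by the study's methods: a sample was lost to poor RNA quality, and only 3 were left to sequence. No aggregates held for 2 or 8 h without field are part of the series, so time in the channel and field exposure cannot be told apart. Each line is a single cell line and stands for no other tumor. Because the samples are bulk RNA, fewer cells expressing a gene and less RNA per cell also cannot be told apart.

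Arginine methyltransferases move methyl groups from S-adenosylmethionine onto arginine side chains of histones and RNA-binding proteins. PRMT1, PRMT2, PRMT3, CARM1 and PRMT6 are type I enzymes, which leave asymmetric dimethylarginine. PRMT5 is a type II enzyme, which leaves symmetric dimethylarginine, and PRMT7 leaves monomethylarginine. PRMT6 is a mainly nuclear enzyme that methylates an arginine near the amino terminus of histone H3, a mark that counteracts the neighboring active lysine mark.

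PRMT6 lies on the plus strand at chr1:107056679-107067636 (GRCh38, GENCODE 29). Its only transcript in the table, ENST00000370078, is a single exon of 2616 bases at chr1:107056679-107059294, with 1125 coding bases. A coding part in 1 exon was found for 682 of 10158 coding main transcripts with a mean of at least 1 TPM (6.71%). The whole PRMT6 level is therefore carried by 1 transcript, and no sharing of its reads between isoforms enters its values. The RefSeq promoter window of PRMT6 (GRCh38.p14, chr1:107056424-107056723, plus strand, 250 bases before to 50 after the start) is shown because PRMT6 is the member whose RNA differed most after the field. The capitals mark an ETS core, searched as CGGAAG on both strands and found here on the minus strand, with its first base at -94 from the start.
PRMT6 promoter: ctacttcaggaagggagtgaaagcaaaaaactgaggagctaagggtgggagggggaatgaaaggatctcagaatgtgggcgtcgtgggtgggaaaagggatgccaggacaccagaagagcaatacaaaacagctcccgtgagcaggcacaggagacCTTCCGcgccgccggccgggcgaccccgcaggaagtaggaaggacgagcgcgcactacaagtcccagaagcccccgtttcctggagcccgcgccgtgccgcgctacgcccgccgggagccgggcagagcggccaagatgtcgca
This core occurs in 19.9% of the 27305 promoter windows of the same length. The window holds 25 CpG dinucleotides, against a median of 14 over all windows. A GC box (GGGCGG, in 44.6% of windows), a CCAAT box (CCAAT, 35.7%), a TATA box (TATAAA, 12%), an E box (CACGTG, 7.40%), a CRE (TGACGTCA, 2.00%) and an AP-1 site (TGACTCA, 4.90%) were not found as exact letters in this window. Among the other members, PRMT3 and PRMT7 also hold the ETS core in their windows, and PRMT1, PRMT2, PRMT5 and CARM1 do not.

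Library depth was 8341976 to 15610886 estimated counts. Expression is given as TPM, transcript abundance corrected for length and scaled to a fixed library total, or as CPM, counts scaled to a fixed total without a correction for length. Agreement between replicates was lower in DAOY at 0 h than elsewhere: the mean correlation of a library with the others of its condition was 0.954 to 0.961 there and 0.969 to 0.986 in the other conditions, with DAOY 0 h replicate 0 the lowest. The share of TPM from mitochondrial genes was 6.41% to 12.7% in DAOY at 0 h and 12.9% to 18.1% at 8 h, and its part in the DAOY results was not tested. Of the 7 glial and glioblastoma markers, 5 reached 1 TPM in U87 mg, with VIM at 3997 to 5341 TPM, while S100B and SOX2 stayed at or below 0.173 and 0.0858 TPM. Of the 8 medulloblastoma and granule lineage markers, 7 had values, and 5 of these reached 1 TPM in DAOY, with SFRP1 at 18.9 to 28.2 TPM. Counted at 1 TPM, the lists did not separate the lines. Of the 7 glial markers 4 also reached 1 TPM in DAOY, as did 4 of the 7 measured medulloblastoma markers in U87 mg. Their summed TPM did differ: the glial sum was 6734 to 8357 in U87 mg and 2621 to 4036 in DAOY, mostly VIM and CD44. The medulloblastoma sum was 8.74 to 26.5 in U87 mg and 40.0 to 52.6 in DAOY, with SFRP1 the largest in DAOY. GLI1 was higher in U87 mg (1.51 to 7.19 TPM) than in DAOY (0 to 0.932 TPM), and so was GLI2 (2.2 to 5.03 against 0.817 to 1.81 TPM). NEUROD1 stayed at or below 0.176 TPM in DAOY, and ATOH1 was not analysed. Of the 2 blood markers, PTPRC did not exceed 0.663 TPM in any sample, while CD68 was 247 to 602 TPM in U87 mg and 10.8 to 43.9 TPM in DAOY. The part of other cell types in the results was not tested.

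PRMT6 RNA was lower after 8 h at 250 V/m in both lines. In U87 mg it was 15.5, 15.8 and 14.5 TPM at 0 h, 12.4, 13.1 and 14.4 TPM at 2 h, and 4.03, 6.40 and 3.55 TPM at 8 h. In DAOY it was 33.4, 31.0 and 43.4 TPM at 0 h, 25.4, 35.8 and 27.0 TPM at 2 h, and 17.8, 12.6 and 11.4 TPM at 8 h. In each line all 3 samples at 8 h lay below all samples at 0 h and at 2 h, whereas the 0 h and 2 h ranges overlapped in DAOY and nearly met in U87 mg, where the lowest sample at 0 h had 14.5 TPM and the highest at 2 h 14.4 TPM. The 8 h values rest on 61.0 to 117 estimated counts per library in U87 mg and on 183 to 310 in DAOY.

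**Figure D1:**
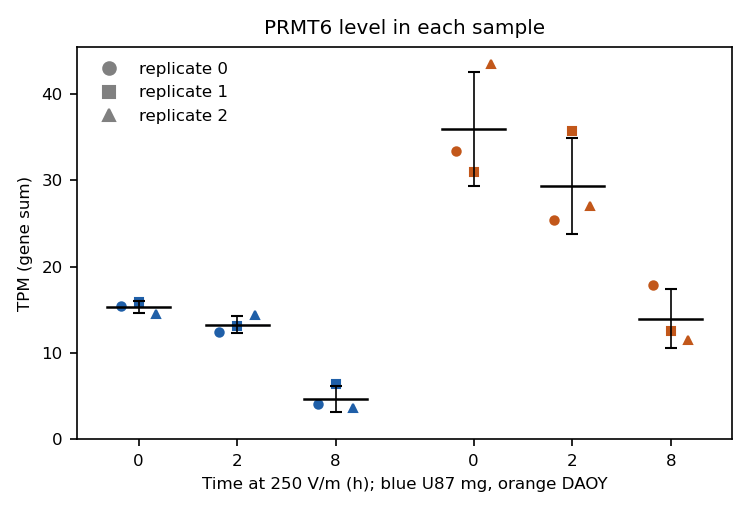
PRMT6 level (TPM, gene sum) in each of the 18 samples by hours at 250 V/m, U87 mg in blue and DAOY in orange; bars are the mean and SD of 3 samples. The U87 mg samples at 8 h lie between 3.55 and 6.40 TPM and the DAOY samples at 8 h between 11.4 and 17.8 TPM, below every other sample of their line.

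On the log2 scale of the edgeR fit, PRMT6 at 8 h differed from 0 h by -1.65 ± 0.19 (SE, n = 3 per condition) in U87 mg, a fold of 0.319, and by -1.30 ± 0.21 in DAOY, a fold of 0.405. The 2 h differences were -0.22 ± 0.18 in U87 mg and -0.34 ± 0.21 in DAOY. Both times were compared with the same 0 h samples. Of 14106 genes tested in U87 mg, 29 had a lower log2 fold change at 8 h than PRMT6. In DAOY 312 of 15396 genes did. At 2 h the corresponding numbers were 4375 in U87 mg and 1540 in DAOY. The 8 h change in DAOY minus that in U87 mg was 0.35 ± 0.29 for PRMT6, and the 2 h difference was -0.14 ± 0.28.

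The lines also differed in their starting level. At 0 h PRMT6 was 2.24-fold higher in DAOY than in U87 mg (log2 difference 1.16 ± 0.20), with no overlap between the 3 samples of each line. Ordered by mean TPM, the 6 conditions ran from DAOY 0 h (35.9 ± 6.61, SD, n = 3) over DAOY 2 h (29.4 ± 5.59), U87 mg 0 h (15.3 ± 0.681), DAOY 8 h (14.0 ± 3.42) and U87 mg 2 h (13.3 ± 1.01) to U87 mg 8 h (4.66 ± 1.53). DAOY 0 h and 2 h overlapped. So did DAOY 8 h with its neighbors on either side, U87 mg at 0 h and at 2 h. PRMT6 made up 4.94% to 6.59% of the summed TPM of the 7 genes in U87 mg at 0 h and 1.5% to 2.09% at 8 h. In DAOY its share was 6.92% to 8.33% at 0 h and 3.16% to 4.31% at 8 h.

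The other 6 members were compared with edgeR's quasi-likelihood test on gene sums, calling a gene where the Benjamini-Hochberg adjusted p (FDR) was below 0.05 and the log2 fold change reached 1 in either direction. None of the 6 was called in U87 mg at 2 h, where 0% of all genes tested were called, or at 8 h, where 0.638% were. None was called in DAOY at 2 h (0% of all genes) or at 8 h (3.13%). With the FDR alone the background was 0% at 2 h in both lines, 1.72% at 8 h in U87 mg and 5.85% at 8 h in DAOY, and again none of the 6 passed. DESeq2 likewise called 0 of 6 in each of these comparisons. At an unadjusted p below 0.05, 1 of 6 passed in the U87 mg comparison at 2 h (PRMT5) and 0 in that at 8 h, while in DAOY 0 passed after 2 h and 1 after 8 h (PRMT3). Over all genes, 8.78% and 15.9% passed in U87 mg at 2 h and 8 h and 2.75% and 22.7% in DAOY. At 8 h the log2 fold changes of the 6 genes ran from -0.09 (PRMT7) to 0.09 (PRMT1) in U87 mg, with standard errors of 0.14 to 0.25. In DAOY they ran from -0.65 (PRMT7) to 0.11 (PRMT2), with standard errors of 0.15 to 0.36. Their median at 8 h was -0.03 in U87 mg and -0.14 in DAOY, beside -0.0012 and -0.01 over all genes tested. These differences were small enough for their direction to depend on the fit: in U87 mg each of the 6 turned its sign in at least 1 alternative fit, and in DAOY PRMT1, PRMT2 and CARM1 did, while PRMT3, PRMT5 and PRMT7 stayed negative.

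**Figure D2:**
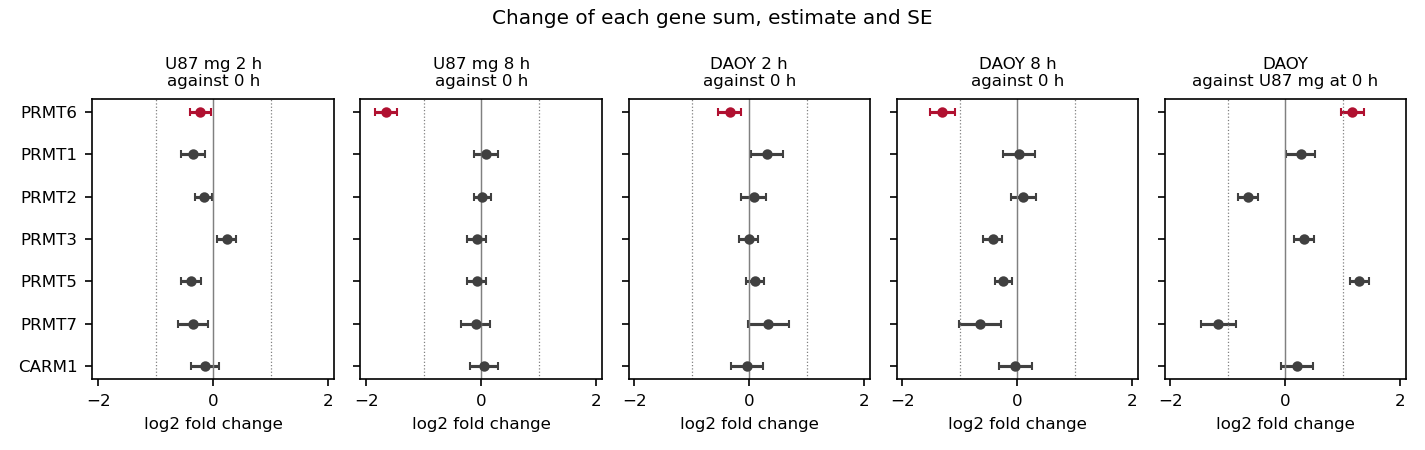
log2 fold change of each gene sum with its standard error in the 4 comparisons with 0 h and between the lines at 0 h; PRMT6 is in red, and dotted lines mark log2 fold changes of -1 and 1. At 8 h PRMT6 lies at -1.65 in U87 mg and -1.30 in DAOY, while the other 6 genes lie between -0.09 and 0.09 in U87 mg and between -0.65 and 0.11 in DAOY.

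The difference between the lines in the response was tested as an interaction over all 18 samples. None of the 6 genes passed at 2 h (0% of all genes) or at 8 h (0.0121%, 2 of 16482 genes), and 0 of 6 had an unadjusted p below 0.05 or were called by DESeq2 at either time. The largest interaction estimates were 0.65 ± 0.43 for PRMT7 at 2 h and -0.55 ± 0.44 for PRMT7 at 8 h.

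PRMT1, at chr19:49675786-49689029, is the main source of asymmetric dimethylarginine in most cells. In U87 mg it was 50.6, 96.6 and 90.3 TPM at 0 h, 69.8, 69.1 and 60.3 TPM at 2 h, and 89.8, 88.8 and 71.6 TPM at 8 h. DAOY held 65.4, 145 and 122 TPM at 0 h, 180, 117 and 102 TPM at 2 h, and 128, 82.5 and 96.3 TPM at 8 h. In each line replicate 0 at 0 h was the lowest of the 9 samples, and the ranges at 2 h and 8 h overlapped with 0 h. The 8 h differences were 0.09 ± 0.21 in U87 mg and 0.02 ± 0.28 in DAOY (adjusted p = 0.898 and 0.981). Their sign turned without U87 mg 0 h replicate 0 (-0.15, adjusted p = 0.508) and without DAOY 0 h replicate 0 (-0.22, adjusted p = 0.613), and also without replicate 0 at 8 h of either line and, in DAOY, on the log2 TPM scale. The 2 h difference in U87 mg was -0.36 ± 0.21 (adjusted p = 0.495). Without U87 mg 0 h replicate 0 it was -0.60 with an adjusted p of 0.0351, past the FDR but under the fold threshold; in that fit 4777 of 14487 genes had an unadjusted p below 0.05.

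PRMT3, at chr11:20387530-20509294, is a cytosolic type I enzyme that methylates the ribosomal protein RPS2. In DAOY it was 33.8, 33.7 and 35.2 TPM at 0 h, 34.9, 37.1 and 36.2 TPM at 2 h, and 26.8, 26.6 and 21.1 TPM at 8 h. The 3 samples at 8 h lay below all others of the line. The log2 difference at 8 h was -0.43 ± 0.17 (unadjusted p = 0.0269 and adjusted p = 0.159 in edgeR's quasi-likelihood test), so it did not pass over all genes. In U87 mg PRMT3 was 22.0 to 29.9 TPM at 0 h and 21.2 to 28.8 TPM at 8 h, with a difference of -0.07 ± 0.17 (adjusted p = 0.894). The change in DAOY minus that in U87 mg at 8 h was -0.34 ± 0.24 (adjusted p = 0.761).

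Among the PRMT3 transcripts, the mean in DAOY differed most between 0 h and 8 h for ENST00000330796. This transcript, annotated as a target of nonsense-mediated decay, was 22.5, 5.91 and 16.1 TPM at 0 h and 6.32, 7.54 and 6.64 TPM at 8 h. The coding transcripts ENST00000437750 and ENST00000331079 averaged 11.3 and 7.79 TPM at 0 h and 10.4 and 7.34 TPM at 8 h. The ranges of ENST00000330796 overlapped, and its log2 difference of -1.12 ± 0.52 did not pass (adjusted p = 0.520, edgeR's quasi-likelihood test over 41336 transcripts).

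CARM1, at chr19:10871513-10923070, is a coactivator that methylates histone H3 and the acetyltransferases p300 and CBP. Its levels were 11.0, 19.7 and 20.4 TPM in U87 mg at 0 h and 20.0, 16.1 and 19.7 TPM at 8 h. In DAOY they were 9.39, 28.1 and 19.7 TPM at 0 h and 19.9, 17.5 and 18.1 TPM at 8 h. The widest spread was in DAOY at 0 h, where replicate 0 was again lowest. The 8 h differences were 0.05 ± 0.24 in U87 mg and -0.03 ± 0.28 in DAOY (adjusted p = 0.951 and 0.965), and the DAOY difference was positive on the log2(TPM + 1) scale.

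PRMT5, at chr14:22920511-22929585 on the minus strand, is the main type II enzyme and acts in complex with WDR77. On the CPM scale it was 58.1, 50.6 and 44.9 in U87 mg at 0 h, 50.1, 35.3 and 31.2 at 2 h, and 49.1, 48.2 and 44.4 at 8 h. The DAOY values were 109, 130 and 136 CPM at 0 h, 148, 121 and 126 CPM at 2 h, and 114, 95.9 and 102 CPM at 8 h. Every DAOY sample was above every U87 mg sample. The 2 h difference in U87 mg was -0.38 ± 0.17 (unadjusted p = 0.0466, adjusted p = 0.495), and on the log2(TPM + 1) scale it was 0.07. The 8 h differences were -0.08 ± 0.17 in U87 mg and -0.24 ± 0.15 in DAOY (adjusted p = 0.886 and 0.384).

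PRMT2, at chr21:46635167-46665124, is a type I enzyme known as a nuclear receptor coactivator. It was 37.3, 58.7 and 60.6 TPM in U87 mg at 0 h and 52.0, 50.3 and 44.9 TPM at 8 h. In DAOY PRMT2 was 20.3, 43.1 and 32.3 TPM at 0 h and 33.6, 30.9 and 33.3 TPM at 8 h. The 8 h differences were 0.02 ± 0.14 and 0.11 ± 0.22 (adjusted p = 0.969 and 0.831). DAOY 0 h replicate 0 was the lowest of the line here too.

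PRMT7, at chr16:68310974-68358563, had the lowest counts of the 7 genes, with 21.0 to 187 estimated counts per library. It was 18, 20.3 and 19.3 TPM in U87 mg at 0 h and 22.1, 17.6 and 12.1 TPM at 8 h. In DAOY PRMT7 was 7.65, 11.3 and 11.7 TPM at 0 h, 8.74, 9.40 and 4.54 TPM at 2 h, and 9.11, 7.41 and 5.22 TPM at 8 h. In TPM the DAOY ranges overlapped at all times, whereas in CPM the samples at 8 h (2.12 to 4.23) lay below those at 2 h (4.96 to 7.14). The 8 h difference was -0.09 ± 0.25 in U87 mg and -0.65 ± 0.36 in DAOY (adjusted p = 0.912 and 0.322). The 2 h difference in DAOY was 0.33 ± 0.35 (adjusted p = 0.999), with the opposite sign on the log2(TPM + 1) scale (-0.42).

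**Figure D3:**
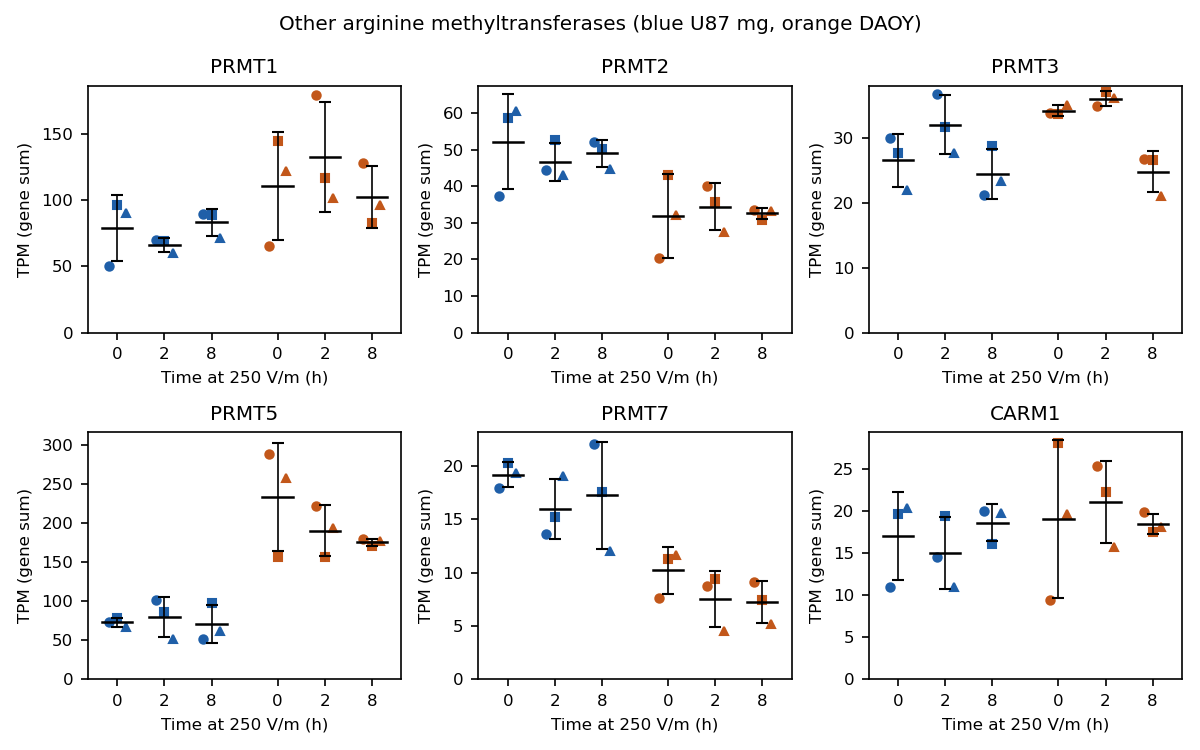
Level (TPM, gene sum) of PRMT1, PRMT2, PRMT3, PRMT5, PRMT7 and CARM1 in each sample by hours at 250 V/m, U87 mg in blue and DAOY in orange, with circles, squares and triangles for replicates 0, 1 and 2 and bars for the mean and SD of 3 samples. PRMT5 is higher in DAOY (156 to 288 TPM) than in U87 mg (51.0 to 102 TPM), and PRMT7 is lower in DAOY at 0 h (7.65 to 11.7 TPM) than in U87 mg at 0 h (18 to 20.3 TPM).

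Without field, PRMT5 was higher and PRMT7 and PRMT2 were lower in DAOY than in U87 mg. At 0 h, 2 of the 6 genes were called between the lines, where 41.2% of all genes were, so the count does not set the family apart. PRMT5 was higher in DAOY by 1.29 ± 0.16 (2.44-fold, adjusted p = 2.68e-06) and PRMT7 was lower by -1.17 ± 0.30 (0.445-fold, adjusted p = 0.00295). PRMT2 was lower in DAOY by -0.66 ± 0.17 (adjusted p = 0.00325), past the FDR alone, which 60.7% of all genes passed, and with only the 6 samples at 0 h its adjusted p was 0.0657. PRMT1 (0.26 ± 0.25), PRMT3 (0.32 ± 0.17) and CARM1 (0.20 ± 0.27) did not pass. PRMT3 passed the FDR without U87 mg 0 h replicate 0 (0.47, adjusted p = 0.0316). The PRMT7 call was lost in several fits. With the replicate number as a block the difference was -0.92 and missed the FDR (adjusted p = 0.110). DAOY 0 h replicate 0 had 29 estimated counts for PRMT7, and without that library the difference was -0.97 (adjusted p = 0.0165), under the fold threshold, and on the log2(TPM + 1) scale it was -0.87 (adjusted p = 0.0122).

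Over all features of a fit, transcripts varied far more between replicates than gene sums did. The common biological coefficient of variation of all gene sums tested was 0.18 in U87 mg and 0.256 in DAOY. That of all transcripts tested was 0.761 and 0.833. It was not computed for the members alone. Among the members, large differences between replicates were seen for the main transcripts of PRMT1 and PRMT5. ENST00000454376 (PRMT1) was 0.0654 TPM in DAOY 0 h replicate 0 and 87.1 and 67.8 TPM in the other replicates. ENST00000397441 (PRMT5) was 0.00115 TPM in the same library and 54.8 and 61.9 TPM in the others, whereas ENST00000556043 (PRMT5) was 78.6 TPM there and 5.90 and 0.000807 TPM in the others. The gene sum of PRMT5 in that library was the highest of the line in TPM (288) and the lowest of its condition in CPM (109). In 116 cases a transcript of these 6 genes reached 50 counts in some replicate, and in 26 of them (22.4%) it fell under 1 count in a replicate from the same condition. Over all transcripts the share was 11.3% (16053 of 141606), and DAOY 0 h replicate 0 held the most such transcripts of the 18 libraries (2130).

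**Figure D4:**
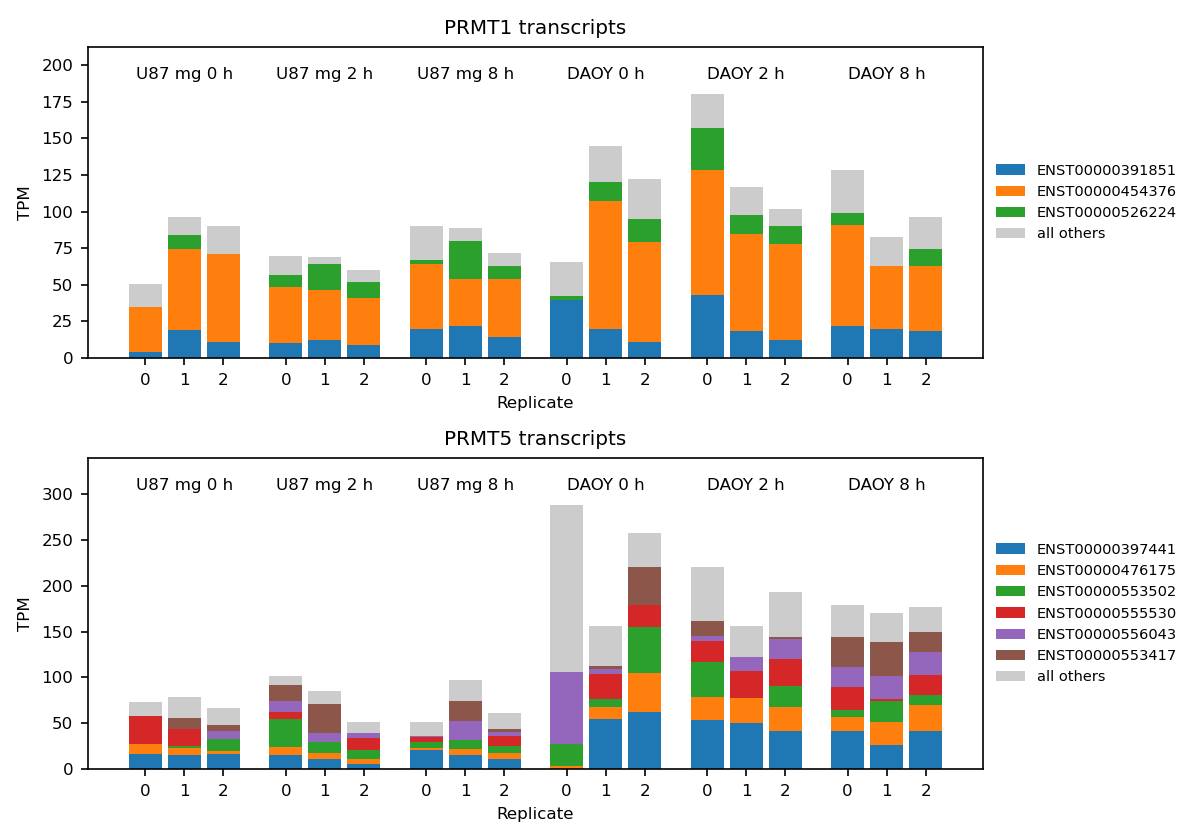
TPM of the PRMT1 and PRMT5 transcripts that make up at least 10% of their gene in either line, stacked per sample, with all other transcripts in grey. In DAOY 0 h replicate 0 the main transcripts ENST00000454376 (0.0654 TPM) and ENST00000397441 (0.00115 TPM) are missing while other transcripts of the same genes are high.

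Of the members' transcripts, 34 in U87 mg and 36 in DAOY passed the filter on low counts besides that of PRMT6. None was called at 2 h or 8 h in either line, and no transcript of any gene was (0% of 40613 in U87 mg and 0% of 41336 in DAOY). The authors' own comparison with Sleuth, at the same thresholds, did report differentially expressed transcripts in both lines, some at 2 h and more at 8 h. The 0% therefore belongs to the edgeR fit. The numbers with an unadjusted p below 0.05 were 0 at 2 h and 0 at 8 h in U87 mg, 0 at 2 h and 2 at 8 h in DAOY. DESeq2 called 0 of the main transcripts of PRMT1, PRMT2, PRMT3, PRMT5 and CARM1 in each of the 4 comparisons. The main transcript of PRMT7, ENST00000566687, did not pass the filter on low counts in either line. For the PRMT6 transcript the 8 h difference in the transcript fit was -1.69 ± 0.22 in U87 mg and -1.33 ± 0.23 in DAOY, close to its gene sum.

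The transcript with the largest part of PRMT1 was ENST00000454376 (53.5% of its TPM in U87 mg and 50.9% in DAOY), of PRMT3 ENST00000437750 (44.3% and 36.9%), of PRMT5 ENST00000397441 (19.1% and 20.7%) and of CARM1 ENST00000344150 (51.3% and 45.2%). Part of the PRMT2 and PRMT7 signal came from transcripts annotated as retaining an intron. Such transcripts held a median of 50.9% to 62.9% of PRMT2 TPM in the U87 mg conditions and 41.7% to 51.9% in the DAOY conditions. ENST00000482508 of PRMT2 was 8.36 to 12.1 TPM in U87 mg at 0 h, 11.9 to 18.5 TPM at 2 h and 13.6 to 14.5 TPM at 8 h. In DAOY it stayed between 0 and 4.81 TPM, so that all U87 mg samples lay above all DAOY samples. Another retained-intron transcript, ENST00000481861, was 7.39 to 18.1 TPM in U87 mg and 8.93 to 16.7 TPM in DAOY. For PRMT7 the median share of retained-intron transcripts was 44.8% to 59.0% in the U87 mg conditions and 24.8% to 54.3% in the DAOY conditions.

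A pair of further relatives complete the family. PRMT9, a second type II enzyme, was 4.0 to 9.41 TPM over all samples and was not called in any comparison, with 8 h differences of 0.08 ± 0.20 in U87 mg and 0.06 ± 0.27 in DAOY (adjusted p = 0.906 and 0.938). PRMT8, a type I enzyme of neurons, stayed at or below 0.0728 TPM and was not tested.

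Genes that act with these enzymes were compared by list, each against the same background. The 6 lists hold 57 genes, of which 51 passed the count filter for U87 mg and 53 that for DAOY. In U87 mg at 8 h, 3 of 51 passed the FDR upwards and 0 downwards (background 1.72% in both directions), and 0 were called, with 11 at an unadjusted p below 0.05 (background 15.9%). For DAOY at 8 h, 3 of 53 passed upwards and 2 downwards (background 5.85%), and 3 were called (background 3.13%), with 14 at an unadjusted p below 0.05 (background 22.7%). No list gene passed at 2 h in either line, and none passed as a difference between the lines in the response.

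Among readers and proposed erasers of methylarginine, JMJD6, a lysyl hydroxylase also proposed as an arginine demethylase, was higher at 8 h in both lines. In U87 mg it was 47.1, 48.2 and 53.9 TPM at 0 h and 103, 77.9 and 83.9 TPM at 8 h. The DAOY levels were 16.4, 23.7 and 27.6 TPM at 0 h, 34.3, 31.5 and 31.9 TPM at 2 h, and 49.2, 46.7 and 58.1 TPM at 8 h. The samples at 8 h lay above all samples at 0 h in each line. The log2 difference was 0.96 ± 0.14 in U87 mg (adjusted p = 0.0158, under the fold threshold) and 1.27 ± 0.18 in DAOY (adjusted p = 0.00884, called). The U87 mg result missed the FDR without U87 mg 0 h replicate 2 (0.97, adjusted p = 0.0631) or U87 mg 8 h replicate 2 (0.95, adjusted p = 0.101), with only the 6 samples compared (adjusted p = 0.0725) and on both log2 TPM scales (adjusted p = 0.0584 and 0.0583). Without DAOY 8 h replicate 1 the DAOY difference was 1.27 with an adjusted p of 0.0553. The other tested members of that list (TDRD3, SMN1, SMN2, SMNDC1 and SND1) did not pass, and the near-identical copies SMN1 and SMN2 share reads.

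Of the 7 genes of the S-adenosylmethionine cycle and methylarginine breakdown, 2 passed the FDR at 8 h in DAOY and 0 of the 6 tested did in U87 mg. DDAH1, which hydrolyzes asymmetric dimethylarginine, was 19.1, 17.6 and 14.7 TPM in DAOY at 0 h and 31.6, 46.0 and 25.7 TPM at 8 h, with no overlap. Its log2 difference was 1.05 ± 0.25 (adjusted p = 0.0357, called). This call was lost when any of DAOY 0 h replicates 1 or 2, DAOY 2 h replicates 1 or 2, or the 3 DAOY 8 h replicates was left out, with differences of 0.76 to 1.23 and adjusted p values of 0.0573 to 0.124. MTR, the methionine synthase that remakes methionine for the cycle, was 14.2 to 19.0 TPM in DAOY at 0 h and 9.22 to 9.57 TPM at 8 h, a difference of -0.87 ± 0.14 (adjusted p = 0.0121, under the fold threshold), which missed the FDR without DAOY 8 h replicate 1 (adjusted p = 0.0559) or replicate 2 (adjusted p = 0.058). Over all alternatives MTR in DAOY missed the FDR in 4 fits, 2 of them with a library left out. In U87 mg MTR was 12.6 to 13.5 TPM at 0 h and 8.04 to 11.8 TPM at 8 h, a difference of -0.44 ± 0.14 that did not pass (adjusted p = 0.136).

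Of 28 genes for proteins methylated by these enzymes, 2 passed the FDR upwards in U87 mg at 8 h and 1 upwards and 1 downwards in DAOY. The first were NCOA3 (0.90 ± 0.13, adjusted p = 0.0158) and EP300 (0.64 ± 0.13, adjusted p = 0.0361), coactivators that CARM1 methylates. NCOA3 missed the FDR without U87 mg 0 h replicate 2 (0.77, adjusted p = 0.0833) or 8 h replicate 2 (0.84, adjusted p = 0.101), and EP300 did in 6 of the 9 fits that left out a library. Over all alternatives NCOA3 missed the FDR in 5 and EP300 in 11, among them both log2 TPM scales and the 6 samples compared for each gene, and for EP300 also the replicate block (adjusted p = 0.0503). In DAOY CREBBP, a paralog of EP300, was higher by 0.65 ± 0.17 (adjusted p = 0.0484), which missed the FDR in all 9 fits that left out a library (adjusted p = 0.0619 to 0.178). In the other line of each gene the estimates were 0.60 ± 0.20 for NCOA3 and 0.57 ± 0.15 for EP300 in DAOY and 0.63 ± 0.15 for CREBBP in U87 mg (adjusted p = 0.107, 0.0505 and 0.0658). CIRBP, the cold-inducible RNA-binding protein, was lower in DAOY by -1.07 ± 0.16 (adjusted p = 0.0106, called), and its estimate in U87 mg was -0.45 ± 0.15 (adjusted p = 0.153). CIRBP was 105 to 193 TPM in DAOY at 0 h and 71.8 to 73.7 TPM at 8 h. Its call was lost without DAOY 0 h replicate 1 (-0.91, adjusted p = 0.0196), DAOY 8 h replicate 1 (-1.05, adjusted p = 0.0591) or DAOY 8 h replicate 2 (-1.05, adjusted p = 0.0526). The median log2 difference of the 28 genes at 8 h was 0.13 in U87 mg and 0.07 in DAOY, beside -0.0012 and -0.01 over all genes. Between the lines at 0 h, 4 of the 28 were called, fewer than the 41.2% of all genes. By the FDR alone 11 passed upwards and 3 downwards, beside 60.7% of all genes passing in either direction. Those called were higher in DAOY: CIRBP (1.12 ± 0.15), SNRPB (1.08 ± 0.26), PABPN1 (1.38 ± 0.12) and SMARCC1 (1.17 ± 0.14). Of these, CIRBP fell under the fold threshold without U87 mg 0 h replicate 0 (0.99) or DAOY 0 h replicate 1 (0.95), and SNRPB did without U87 mg 0 h replicate 0 (0.90), DAOY 0 h replicate 1 (0.80) or DAOY 0 h replicate 2 (0.96). With the replicate block SNRPB also missed the FDR (0.97, adjusted p = 0.0685).

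None of the 3 measured genes reported to be repressed by PRMT6 passed at 8 h in either line, and CDKN2A was not analysed. CDKN1A, the cell cycle inhibitor p21, was 95.8 to 182 TPM in U87 mg at 0 h and 115 to 144 TPM at 8 h, with a difference of -0.04 ± 0.20 (adjusted p = 0.959). In DAOY CDKN1A was 47.7 to 145 TPM at 0 h and 104 to 149 TPM at 8 h, with a difference of 0.55 ± 0.33 (adjusted p = 0.365). CDKN1B, the inhibitor p27, differed by -0.08 ± 0.18 and -0.04 ± 0.15 (adjusted p = 0.889 and 0.908). THBS1, the secreted thrombospondin, differed by 0.01 ± 0.35 and 0.05 ± 0.49 (adjusted p = 0.991 and 0.969). The line difference was larger: at 0 h THBS1 was 8.0 to 17.9 TPM in U87 mg and 98.0 to 561 TPM in DAOY (4.59 ± 0.54, adjusted p = 1.28e-06).

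Of the 8 partners and regulators, none passed at 8 h in either line, while 4 were called higher in DAOY than in U87 mg at 0 h, beside 41.2% of all genes called. By the FDR alone 5 were higher and 2 lower, beside 60.7% of all genes passing in either direction. The PRMT5 adaptors did not move one way: COPRS was lower in DAOY by -0.78 ± 0.15 (adjusted p = 0.000291, under the fold threshold), whereas CLNS1A differed by 1.59 ± 0.13 (adjusted p = 2.02e-08) and RIOK1 by 2.85 ± 0.17 (adjusted p = 2.27e-10). WDR77, the PRMT5 partner that completes the core complex, was 36.7 to 49.8 TPM in U87 mg and 35.3 to 57.5 TPM in DAOY at 0 h and did not pass. BTG2, a regulator of PRMT1, differed by 2.62 ± 0.33 (adjusted p = 2.17e-06). EPB41L3, a modulator of PRMT3 and PRMT5, had 0 to 4 estimated counts per library in U87 mg at 0 h and 386 to 669 in DAOY. Of the S-adenosylmethionine list, DDAH1 (2.22 ± 0.26) and MTAP (1.53 ± 0.63) were called higher and AHCY (-1.17 ± 0.14), the hydrolase of S-adenosylhomocysteine, lower in DAOY (adjusted p = 1.32e-06, 0.0444 and 1.03e-06). The share of all genes called was the same 41.2%. MTAP stayed at or below 0.494 TPM in every sample, and its call was lost in 15 of 26 alternative fits. JMJD6 was lower in DAOY at 0 h (-1.19 ± 0.16, adjusted p = 4.99e-06).

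The genes whose pattern was most like that of PRMT6 were ranked by the smaller of their Pearson correlations with PRMT6 over the 9 samples of each line in log2 CPM, among 13137 genes. The 5 leading genes were ZNF287 (r = 0.962 in U87 mg and 0.975 in DAOY), PIGM (0.954 and 0.952), ZNF7 (0.979 and 0.949), KLHDC2 (0.958 and 0.948) and C12orf66 (0.941 and 0.941). The 9 libraries of a line differ in time, field and depth, and the part of each in these correlations was not tested. ZNF287 and ZNF7 encode zinc finger proteins, PIGM a mannosyltransferase of glycosylphosphatidylinositol anchors, and KLHDC2 a substrate receptor of a ubiquitin ligase. Since PRMT6 was lower at 8 h in these samples, the choice by correlation fixed the direction of the 5 genes there. Their 8 h differences ran from -0.32 (KLHDC2) to -1.26 (ZNF287) in U87 mg and from -0.76 (ZNF7) to -1.84 (C12orf66) in DAOY. PIGM was 7.12, 7.60 and 6.49 TPM at 0 h and 3.90, 5.06 and 2.95 TPM at 8 h in U87 mg. Its DAOY values were 11.7, 10.8 and 12.9 TPM at 0 h and 5.82, 3.51 and 4.81 TPM at 8 h. Like PRMT6, PIGM has 1 transcript in the table, a single exon, and the main transcript of ZNF7 has its coding part in 1 exon. The main transcript of KLHDC2, annotated as a target of nonsense-mediated decay, has 7 coding exons. That of C12orf66 has 3, and that of ZNF287 is a retained-intron transcript of 2 exons. Of the list genes, MTR was closest to PRMT6, at rank 120 (r = 0.870 in U87 mg and 0.852 in DAOY).

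**Figure D5:**
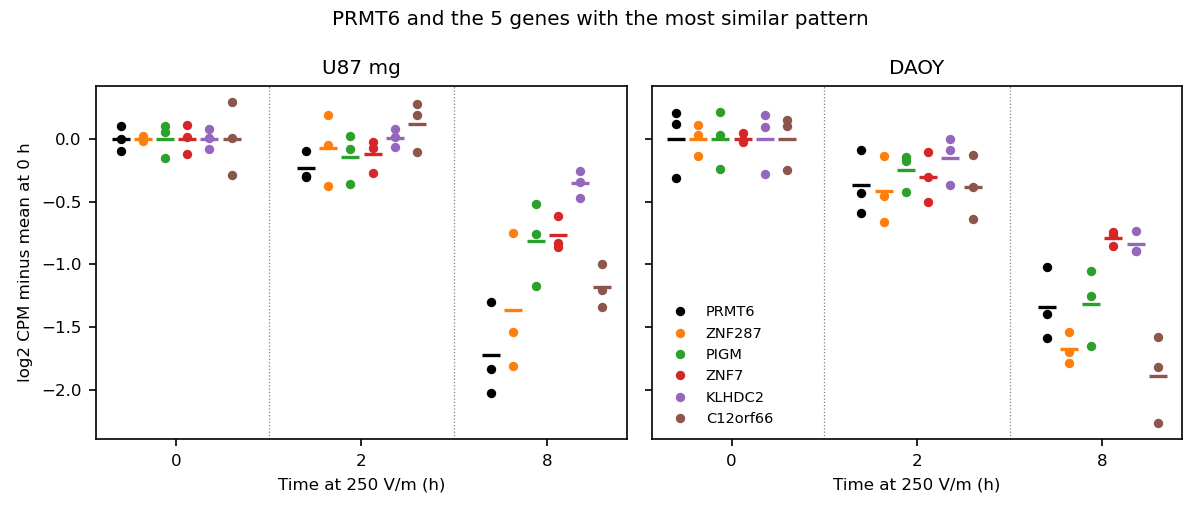
log2 CPM minus the mean at 0 h of the same line for PRMT6 and the 5 genes most like it by correlation, by hours at 250 V/m; points are samples and dashes the mean of 3. The fitted 8 h differences run from -0.32 (KLHDC2) to -1.65 (PRMT6) in U87 mg and from -0.76 (ZNF7) to -1.84 (C12orf66) in DAOY.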

How the data were processed

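The authors trimmed single-end reads with the FASTQC Toolkit (2.0.0), pseudo-aligned them to GENCODE 24 transcripts (GRCh38.p5) with Kallisto (0.43.0) and compared conditions with Sleuth (0.28.1) in R (3.2.1). The deposited table holds the authors' estimated counts and TPM per transcript and sample. It also holds p-values, q-values and fold changes of the authors' comparisons, which were not used. The members and lists compared here were chosen with earlier results of these data known.

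Estimated counts were summed by gene name and rounded. Genes passing filterByExpr were fitted with edgeR (4.0.16; TMM factors, glmQLFit, glmQLFTest), with the 9 samples of a line in one fit for time and all 18 for differences between lines, and p-values were adjusted over all genes tested. Genes were called where the FDR was below 0.05 and the log2 fold change reached 1 in either direction, and interactions on the FDR alone. Standard errors are the estimate divided by the root of its F statistic. Transcripts were fitted likewise. The steps were tested on simulated data. Alternatives were DESeq2 (1.42.0), limma (3.58.1) on log2(TPM + 1) and log2(TPM + 0.1), RLE factors, other filters, other sample sets, a replicate block and leaving out each library. Depth was 8341976 to 15610886 estimated counts per sample. Intervals from reads were not formed, since kallisto counts are estimates. Replicates are biological replicates by the study's methods. Genes named were the 7 members, member transcripts with at least 10% of their gene's TPM in either line, the 5 genes most like PRMT6, list genes called in a comparison and, where under 4 of a list were, those with the smallest adjusted p at 8 h. Other list genes were named after their values were seen. GENCODE 29, to which 99.2% of transcripts matched, gave coordinates, and RefSeq gave promoters.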

Additional observations from a re-analysis of the deposited data

How the results depend on the processing

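The PRMT6 difference at 8 h ranged over the alternatives from -1.74 to -1.56 in U87 mg and from -1.37 to -1.28 in DAOY. With 1 library left out it ranged from -1.89 to -1.52 and from -1.48 to -1.18. PRMT6 was selected on these samples, and in each line every 8 h sample lay below every 0 h sample. The refits could therefore hardly turn its direction, and their ranges describe only the size of the difference. The count of the other 6 genes called stayed at 0 within both lines and for the interactions in all fits run. The count between the lines at 0 h was 2 and fell to 1 with limma on log2(TPM + 1), with limma on log2(TPM + 0.1) and with the replicate block, since PRMT7 was not called there. The cause was not tested. With 1 library left out the count ranged from 1 to 2, and 1 was reached without DAOY 0 h replicate 0. Replicate numbers were not taken to pair the samples. Over all pairs of conditions within a line, 7 of 18 same-numbered pairs correlated above 0.1 (range -0.20 to 0.44). Across these conditions 10 of 18 samples correlated best with their own number. Same-numbered pairs that include a 0 h sample ranged from -0.20 to 0.31. A different-numbered pair, DAOY 0 h replicate 2 with DAOY 2 h replicate 1, reached 0.446. The 3 same-numbered pairs of U87 mg at 2 h and 8 h, which were not compared, all correlated above 0.1 (0.149 to 0.268). The replicate block changed no other count of these genes (0 in each other comparison). On the log2 TPM scale the uncalled differences of PRMT5 at 2 h in U87 mg, PRMT3, PRMT5, PRMT7 and CARM1 at 2 h in DAOY, PRMT2 at 8 h in U87 mg, PRMT1 and CARM1 at 8 h in DAOY, and the 2 h interactions of PRMT5 and PRMT7 turned their sign. List genes were added to these fits after their values were seen: the DDAH1 call in DAOY at 8 h was lost in 11 of 19 alternatives and the MTAP call between the lines in 15 of 26, and CREBBP in DAOY at 8 h missed the FDR in 13 of 19. PRMT7 rests on 21.0 to 187 estimated counts, and the spread between replicates limits the transcripts.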
